A study of Mus musculus with 9 samples.

Results

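The 8 genes described here encode secreted or membrane proteins of the acute-phase response, of metal handling and of protease inhibition: Lcn2, Cp, Steap4, Saa3, Slpi, Wfdc17, Serpina3g and Serpina3n. They were chosen by their CPM levels in the 3 groups of the study, and all 8 were found among the 17565 genes of the deposited gene table. Their levels and differences between groups are therefore given as a description, with no test.

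RNA with poly-A tails was sequenced from MS1 cells, an immortalised endothelial line from mouse pancreas, carrying 1 of 3 lentiviral constructs, with 3 libraries a group. The TAZ-CAMTA1 group stably expressed TAZ-CAMTA1 from pCDH-TAZ-CAMTA1, the fusion protein of the vascular tumour epithelioid hemangioendothelioma. The TAZ4A group expressed TAZ4A from pCDH-TAZS4A, a form of the Hippo pathway coactivator TAZ whose inhibitory serines are replaced. The control group carried the pCDH-puro backbone, and all groups share the same parent line, so the study describes 1 line in culture. Separate cultures behind the libraries of a group are not stated in the labels, and p-values then measure only library-to-library spread, which may be technical. Mouse Camta1 averaged 13.1 ± 0.58 CPM in TAZ-CAMTA1, 4.91 ± 0.25 CPM in TAZ4A and 4.05 ± 0.92 CPM in control libraries, and mouse Wwtr1, which encodes TAZ, averaged 437 ± 94.4, 325 ± 8.70 and 551 ± 17.6 CPM in the same order (SD, n = 3 each). Whether reads of the constructs were counted in these mouse genes is not given in the sources used here.

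The acute-phase response is the change in secreted proteins that follows infection or injury, driven in liver and in other tissues by cytokines such as interleukin-6, interleukin-1 and tumour necrosis factor through the factors STAT3, C/EBP and NF-kB. Several of its products withhold iron from microbes or bind and oxidise metals, and others block the proteases that inflammatory cells release. Endothelial cells are both targets of these cytokines and a source of acute-phase proteins.

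The promoters of 5 members are shown because the members divide by how TAZ-CAMTA1 cells compare with TAZ4A cells. Lcn2 is the most abundant member in both construct groups, Steap4 and Serpina3g are those with a mean at or above the TAZ4A mean in TAZ-CAMTA1 cells, Saa3 has the lowest level in TAZ-CAMTA1 cells relative to TAZ4A cells, and Serpina3n is a relative of Serpina3g. All 8 members had a RefSeq promoter window on GRCm38.p6, from 250 bases before to 50 bases after the annotated start, and Cp had 2 windows. Each is written 5′ to 3′ on the gene's strand, with capitals at matches to the motifs named after the sequences.
Lcn2 (chr2:32387690-32387989, minus strand): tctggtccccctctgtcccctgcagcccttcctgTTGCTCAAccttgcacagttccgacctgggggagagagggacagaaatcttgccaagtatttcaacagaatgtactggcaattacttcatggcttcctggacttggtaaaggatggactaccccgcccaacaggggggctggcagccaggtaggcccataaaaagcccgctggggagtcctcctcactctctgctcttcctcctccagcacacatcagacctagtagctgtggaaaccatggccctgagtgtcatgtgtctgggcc
Steap4 (chr5:7960222-7960521, plus strand): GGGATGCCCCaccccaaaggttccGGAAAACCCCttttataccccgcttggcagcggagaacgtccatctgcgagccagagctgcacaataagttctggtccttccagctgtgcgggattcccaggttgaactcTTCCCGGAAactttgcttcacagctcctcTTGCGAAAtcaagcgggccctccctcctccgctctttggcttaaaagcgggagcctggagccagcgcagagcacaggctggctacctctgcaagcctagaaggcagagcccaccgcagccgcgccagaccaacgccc
Saa3 (chr7:46715627-46715926, minus strand): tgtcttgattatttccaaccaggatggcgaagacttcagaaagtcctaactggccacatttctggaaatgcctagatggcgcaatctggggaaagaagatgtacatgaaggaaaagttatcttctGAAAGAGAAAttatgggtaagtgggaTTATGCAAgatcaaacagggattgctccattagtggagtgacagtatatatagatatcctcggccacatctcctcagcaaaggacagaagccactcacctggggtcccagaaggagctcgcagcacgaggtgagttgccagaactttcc
Serpina3g (chr12:104235897-104236196, plus strand): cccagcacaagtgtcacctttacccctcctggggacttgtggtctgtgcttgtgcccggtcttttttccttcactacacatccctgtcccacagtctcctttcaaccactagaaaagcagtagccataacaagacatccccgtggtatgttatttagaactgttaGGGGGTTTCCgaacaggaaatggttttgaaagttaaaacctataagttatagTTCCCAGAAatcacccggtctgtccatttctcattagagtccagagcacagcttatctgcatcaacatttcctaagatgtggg
Serpina3n (chr12:104406458-104406757, plus strand): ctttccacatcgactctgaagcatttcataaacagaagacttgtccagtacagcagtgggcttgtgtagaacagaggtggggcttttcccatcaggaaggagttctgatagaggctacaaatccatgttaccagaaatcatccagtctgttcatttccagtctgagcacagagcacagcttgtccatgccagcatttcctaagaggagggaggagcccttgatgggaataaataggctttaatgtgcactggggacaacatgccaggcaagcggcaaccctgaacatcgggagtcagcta

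Motifs were searched on both strands. NF-kB was searched as GGGRNNYYCC, where R is A or G, Y is C or T and N is any base. The other motifs were C/EBP as TTGCNNAA, STAT as TTCNNNGAA, AP-1 as TGANTCA, TEAD as GGAATG and an interferon response motif as GAAA, any 2 bases and GAAA. The Steap4 window held NF-kB matches starting 250 and 226 bases upstream, a STAT match starting 116 bases upstream and a C/EBP match starting 87 bases upstream. The Serpina3g window held an NF-kB match 85 bases upstream and a STAT match 33 bases upstream. No other member window held a match to these NF-kB or STAT letters, and other forms of the sites were not searched. The Lcn2 window held a C/EBP match 216 bases upstream and the Slpi window one 241 bases upstream. The Saa3 window held a C/EBP match 99 bases upstream and an interferon response match 125 bases upstream. A Cp window held an AP-1 match 177 bases upstream, the other Cp window held a C/EBP match 70 bases upstream, and both covered the same TEAD match. No motif of the 6 was found in the Serpina3n and Wfdc17 windows. Among 32851 mouse promoter windows of the same length, 8.46% held an NF-kB, 10.8% a C/EBP, 8.30% a STAT, 7.81% an AP-1, 14.7% a TEAD and 3.44% an interferon response match. The Serpina3g and Serpina3n windows were identical in 148 of 219 aligned columns (67.6%), whereas those of Serpina3g and Serpina3i were identical in 190 of 236 columns (80.5%). A match in letters is a description of the window and not of binding.

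The deposited unit is CPM, reads divided by a scaled library size. Libraries held 21966004 to 34224715 reads in genes, so that 3 reads corresponded to 0.0878 to 0.139 CPM. Counting intervals below cover counting error only. Replicate 2 of TAZ-CAMTA1 stood apart: its log2 values over genes correlated with those of the other 2 TAZ-CAMTA1 libraries at 0.963 and 0.962, against at least 0.997 for every other pair within a group. In that library short genes were higher and long genes lower than in the other TAZ-CAMTA1 libraries. Levels of members relative to TAZ4A and control are given with and without it. For the named related genes, the called TAZ-CAMTA1 differences printed kept their direction and their side of the threshold without it, and the size is given for those that moved most. Pecam1, the endothelial adhesion molecule, was at 3426 to 4405 CPM in TAZ-CAMTA1, 2540 to 2587 CPM in TAZ4A and 3408 to 3480 CPM in control libraries, and 9 of 10 endothelial markers averaged at least 1 CPM in every group, with Cldn5 at 0 to 0.0872 CPM.

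All 8 members passed the filter on low values (0.5 CPM or more in 3 libraries) and entered the limma-trend fit over 12350 genes. In 6 of them no control library reached 0.5 CPM, and Saa3 passed through its TAZ4A libraries alone, so these genes had to differ to enter the fit. At an adjusted p under 0.05 in TAZ-CAMTA1 over TAZ4A, 5 members were lower, 1 was higher and 2 were not called, where 18.5% of all tested genes were lower and 19.4% higher (37.9% in all). In TAZ4A over control all 8 were higher, where 13.2% of tested genes were (24.9% in either direction). In TAZ-CAMTA1 over control 7 of 8 were higher and 1 was not called, where 16.8% of tested genes were higher (32.1% in either direction). Since these contrasts chose the members, nothing is read from the counts. The median log2 difference of the members was -1.72 in TAZ-CAMTA1 over TAZ4A, 4.90 in TAZ4A over control and 3.33 in TAZ-CAMTA1 over control, against -0.02, -0.01 and -0.03 over all tested genes. The 2 differences from control share the control libraries. Summed over the members, TAZ-CAMTA1 libraries held 322 to 466 CPM, TAZ4A libraries 485 to 498 CPM and control libraries 14.1 to 16.2 CPM.

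**Figure D1:**
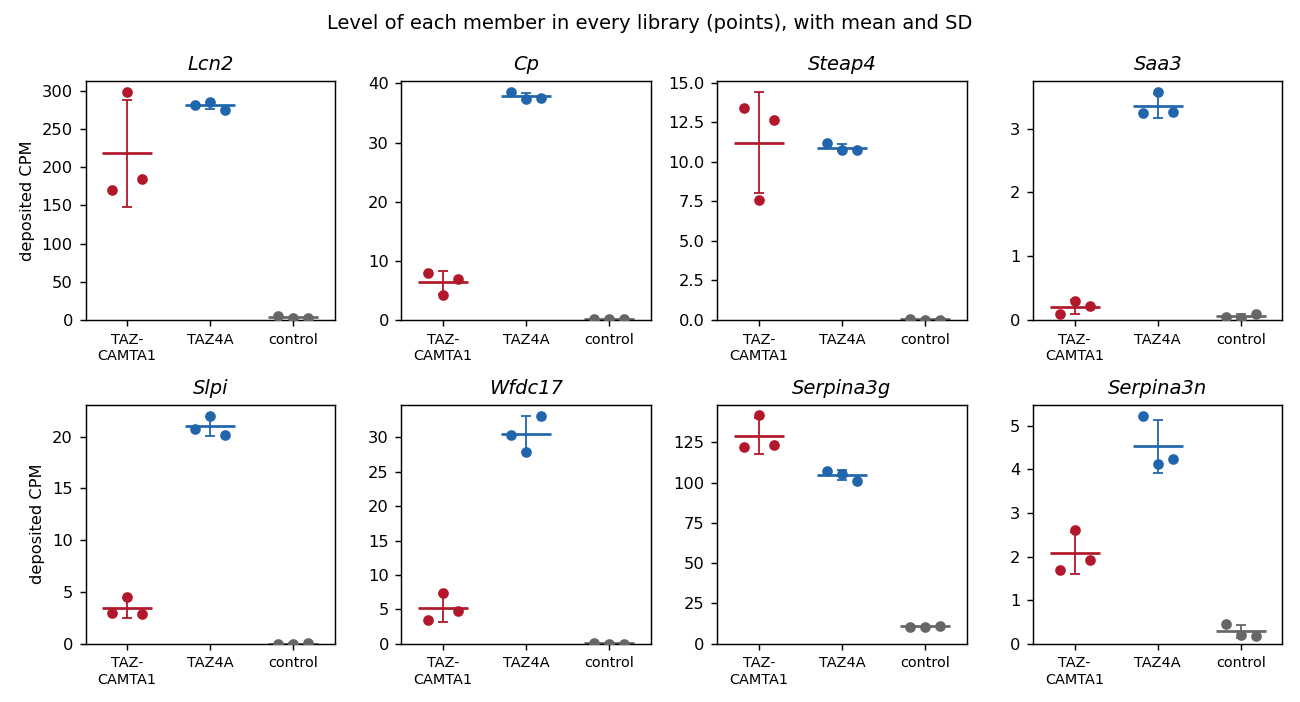
Deposited CPM (vertical axis, linear, from 0, scaled to each gene) of the 8 members in the TAZ-CAMTA1, TAZ4A and control groups. Points are libraries, horizontal lines means and bars SD (n = 3). TAZ-CAMTA1 libraries lie between TAZ4A and control libraries for Cp, Slpi, Wfdc17 and Serpina3n, overlap the TAZ4A libraries for Lcn2 and Steap4, and lie above them for Serpina3g.

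Lcn2 encodes lipocalin 2, a secreted protein that binds the siderophores with which bacteria take up iron. Its level was 170.5, 298 and 185 CPM in TAZ-CAMTA1 libraries 1 to 3, 282, 285 and 275 CPM in TAZ4A libraries and 4.64, 3.14 and 2.98 CPM in control libraries. Both construct groups were far above the control group, and the TAZ-CAMTA1 libraries divided, with replicate 2 above the TAZ4A range and the other 2 below it. The TAZ-CAMTA1 mean was 77.6% of the TAZ4A mean, and 63.4% without replicate 2. The log2 difference was -0.41 (SE 0.22) in TAZ-CAMTA1 over TAZ4A, or -0.66 without replicate 2. It was 6.13 in TAZ4A over control and 5.72 in TAZ-CAMTA1 over control, the last being 5.47 without replicate 2. In ratios of reads, TAZ4A was 81.3-fold over control (95% counting interval 72.6 to 91.4) and TAZ-CAMTA1 63.4-fold over control (56.6 to 71.3, and 51.1-fold without replicate 2). Lcn2 (chr2:32384637-32387739 on GRCm38) supplied 52.9% to 63.9% of the members' summed CPM in TAZ-CAMTA1 libraries, 56.5% to 57.5% in TAZ4A libraries and 20.6% to 28.7% in control libraries.

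Cp encodes ceruloplasmin, a copper-carrying ferroxidase that oxidises iron for loading onto transferrin. Cp (chr3:19956933-20009750) was at 8.03, 4.23 and 6.98 CPM in TAZ-CAMTA1 libraries, 38.5, 37.4 and 37.5 CPM in TAZ4A libraries and 0.19, 0.12 and 0.16 CPM in control libraries, the last from 4, 4 and 5 reads. The 3 groups did not overlap, and the TAZ-CAMTA1 mean was 17.0% of the TAZ4A mean, or 19.9% without replicate 2, in which this long transcript was lowest. The log2 difference was -2.51 (SE 0.19) in TAZ-CAMTA1 over TAZ4A, or -2.26 without replicate 2. By reads, TAZ4A was 253-fold over control (148 to 475) and TAZ-CAMTA1 42.9-fold over control (24.9 to 81.1, and 50.7-fold without replicate 2). Unique reads across Cp introns gave the same order, with 176 in TAZ-CAMTA1, 1274 in TAZ4A and 3 in control libraries. Cp transcripts end in alternative last exons that specify a secreted and a membrane-anchored protein. At the intron start 19989219, 14 unique reads in TAZ-CAMTA1 and 87 in TAZ4A joined the nearer acceptor with intron end 19992508, and 2 in TAZ-CAMTA1 and 21 in TAZ4A the farther one with intron end 20005466. The farther acceptor thus took 12.5% of these reads in TAZ-CAMTA1 and 19.4% in TAZ4A, with control libraries at 0 reads for either. None of the 3 alternative intron pairs of the members had 10 reads in every library compared, so these shares were not tested.

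Steap4 encodes a metalloreductase that reduces iron and copper at cell membranes. Steap4 (chr5:7960472-7982213) was at 13.4, 7.59 and 12.6 CPM in TAZ-CAMTA1 libraries, 11.2, 10.8 and 10.8 CPM in TAZ4A libraries and 0.09, 0.03 and 0 CPM in control libraries, the last from 2, 1 and 0 reads. The ranges of the construct groups overlapped, with TAZ-CAMTA1 replicate 2 below and the other 2 above all TAZ4A libraries. The TAZ-CAMTA1 mean was 103% of the TAZ4A mean, and 120% without replicate 2 (log2 difference 0.25 without it, against -0.0005 with it, SE 0.19). By reads, TAZ-CAMTA1 was 324-fold over control (110.4 to 1572, and 379.6-fold without replicate 2) and TAZ4A 316-fold over control (108 to 1534), wide intervals that follow from 3 control reads.

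Saa3 encodes serum amyloid A3, an apolipoprotein of inflammation that mice make outside the liver as well. Saa3 (chr7:46711998-46719615) was at 0.09, 0.30 and 0.22 CPM in TAZ-CAMTA1 libraries, 3.25, 3.57 and 3.25 CPM in TAZ4A libraries and 0.05, 0.03 and 0.09 CPM in control libraries. It was the member with the lowest TAZ-CAMTA1 level relative to TAZ4A, at 6.08% of the TAZ4A mean, or 4.63% without replicate 2. The TAZ-CAMTA1 libraries held 3, 9 and 5 reads and the control libraries 1, 1 and 3, and their ranges overlapped. By reads, TAZ-CAMTA1 was 3.47-fold over control (1.23 to 12.0) and TAZ4A 58.4-fold over control (24.8 to 181). Without replicate 2 the TAZ-CAMTA1 ratio was 2.51 (0.725 to 9.76), an interval of counting error that is not read as a test. Saa1 was listed at a mean of 0.01 CPM in TAZ-CAMTA1 and 0 in TAZ4A and control libraries, and Saa4 at 0.01 CPM in TAZ4A and 0 in TAZ-CAMTA1 and control libraries, all below the 3-read level.

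Slpi encodes the secretory leukocyte protease inhibitor, which blocks neutrophil elastase. Slpi (chr2:164354070-164356507) was at 2.93, 4.53 and 2.83 CPM in TAZ-CAMTA1 libraries, 20.8, 21.97 and 20.2 CPM in TAZ4A libraries and 0, 0 and 0.03 CPM in control libraries, where 1 read was counted in all. The groups did not overlap, and the TAZ-CAMTA1 mean was 16.4% of the TAZ4A mean, or 13.8% without replicate 2. By reads, TAZ-CAMTA1 was 301-fold over control (53.6 to 11937, and 251-fold without replicate 2) and TAZ4A 1824-fold over control (327 to 72062).

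Wfdc17 encodes another small secreted protein with a WAP domain, the fold of Slpi, and lies on another chromosome. Wfdc17 (chr11:83704056-83706269) was at 3.46, 7.39 and 4.71 CPM in TAZ-CAMTA1 libraries, 30.4, 27.9 and 33.1 CPM in TAZ4A libraries and 0.14, 0 and 0.03 CPM in control libraries. The TAZ-CAMTA1 mean was 17.0% of the TAZ4A mean, or 13.4% without replicate 2, and no ranges overlapped. By reads, TAZ-CAMTA1 was 112-fold over control (43.6 to 414, and 86.4-fold without replicate 2) and TAZ4A 661-fold over control (258 to 2426), with 4 control reads. Its neighbour Wfdc18 was at 0.12, 0.13 and 0.04 CPM in TAZ-CAMTA1, 0.62, 0.70 and 0.52 CPM in TAZ4A and 0 CPM in all control libraries. Wfdc18 passed the filter through its TAZ4A libraries alone, so its differences are given with no test.

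Serpina3g encodes an intracellular serpin that inhibits cathepsins in mice. Serpina3g (chr12:104236147-104241939) was at 122, 142 and 123 CPM in TAZ-CAMTA1 libraries, 107, 105 and 101 CPM in TAZ4A libraries and 10.6, 10.6 and 10.97 CPM in control libraries. It was the member with every TAZ-CAMTA1 library above every TAZ4A library, and the TAZ-CAMTA1 mean was 123% of the TAZ4A mean, or 117% without replicate 2. The log2 difference was 0.30 (SE 0.08) in TAZ-CAMTA1 over TAZ4A, or 0.23 without replicate 2, and 3.23 in TAZ4A over control and 3.52 in TAZ-CAMTA1 over control. Its ratio of reads to control was 12.0 (11.2 to 12.9) in TAZ-CAMTA1, or 11.4 without replicate 2, and 9.74 (9.10 to 10.4) in TAZ4A.

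Serpina3n encodes a secreted serpin that inhibits granzyme B in mice. Serpina3n (chr12:104406646-104414334) was at 1.70, 2.62 and 1.92 CPM in TAZ-CAMTA1 libraries, 5.23, 4.12 and 4.24 CPM in TAZ4A libraries and 0.46, 0.21 and 0.19 CPM in control libraries. The groups did not overlap, and the TAZ-CAMTA1 mean was 45.9% of the TAZ4A mean, or 39.9% without replicate 2. By CPM, Serpina3n thus lay on the other side of the TAZ4A level from Serpina3g in TAZ-CAMTA1 cells. This difference is uncertain, since most Serpina3n intron reads mapped to several places, as given below. By reads, TAZ-CAMTA1 was 7.86-fold over control (5.07 to 12.7, and 6.76-fold without replicate 2) and TAZ4A 17.1-fold over control (11.2 to 27.2).

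**Figure D2:**
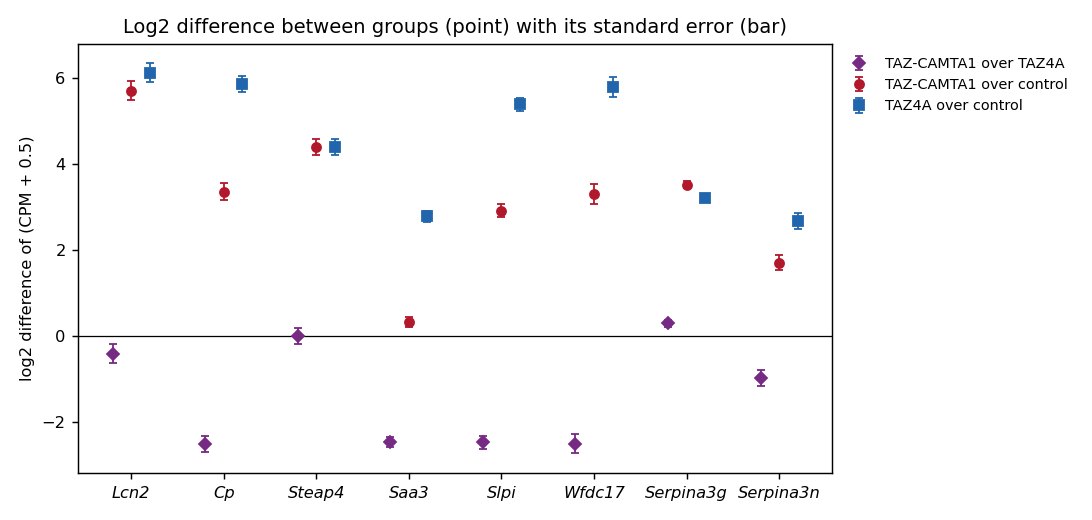
Log2 difference of (CPM + 0.5) between groups for each member (vertical axis), for TAZ-CAMTA1 over TAZ4A (diamonds), TAZ-CAMTA1 over control (circles) and TAZ4A over control (squares). Bars are limma standard errors. Cp, Saa3, Slpi and Wfdc17 sit between -2.46 and -2.51 for TAZ-CAMTA1 over TAZ4A, Serpina3n at -0.97, and Lcn2, Steap4 and Serpina3g between -0.41 and 0.30. The Saa3 value depends on the pseudocount, at -3.57 with 0.1 and -1.28 with 2, where Cp is at -2.59 and -2.27.

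Levels of different genes were set side by side per length, in the deposited TPM. In TAZ-CAMTA1 libraries Lcn2 averaged 583 ± 109 TPM, Serpina3g 148 ± 5.75, Wfdc17 25.1 ± 6.75, Slpi 8.97 ± 1.30, Steap4 8.55 ± 3.18, Cp 2.45 ± 0.96, Serpina3n 2.29 ± 0.26 and Saa3 0.87 ± 0.38 TPM (SD, n = 3). In TAZ4A libraries Lcn2 averaged 828 ± 11.1 TPM, Wfdc17 164 ± 14.7, Serpina3g 130.5 ± 3.51, Slpi 60.3 ± 2.37, Saa3 15.9 ± 0.81, Cp 15.2 ± 0.25, Steap4 8.75 ± 0.19 and Serpina3n 5.47 ± 0.74 TPM. In control libraries Serpina3g averaged 12.9 ± 0.47 and Lcn2 10.2 ± 2.63 TPM, and the other 6 averaged 0.03 to 0.34 TPM. Neighbours in these orders whose library ranges overlapped were Slpi with Steap4 and Cp with Serpina3n in TAZ-CAMTA1, Saa3 with Cp in TAZ4A, and Serpina3g with Lcn2 in control libraries. Wfdc17 ranked above Serpina3g in TAZ4A cells and below it in TAZ-CAMTA1 cells, without overlap in either group.

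TAZ-CAMTA1 replicate 2 differed from the other TAZ-CAMTA1 libraries in opposite directions for short and long members. The length behind the deposited TPM was read from the ratio of CPM to TPM of each gene, as a multiple of the median tested gene. Relative to the mean of replicates 1 and 3, replicate 2 was higher by 0.80 for Wfdc17 (0.16 times the median length), by 0.57 for Slpi (0.30 times) and by 0.74 for Lcn2 (0.29 times) on the log2(CPM + 0.5) scale. The medians of all tested genes were 0.76 in the class under 0.25 times and 0.61 in that from 0.25 to 0.5 times. Saa3 (0.18 times), Serpina3g (0.70 times) and Serpina3n (0.72 times) were 0.21 to 0.44 higher. Replicate 2 stood at -0.75 for Cp (2.16 times), where the class of 2 times or more had a median of -0.77. It stood at -0.74 for Steap4 (1.08 times), where the class from 1 to 1.5 times had a median of -0.15. The part of transcript length in these members' values was not tested.

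**Figure D3:**
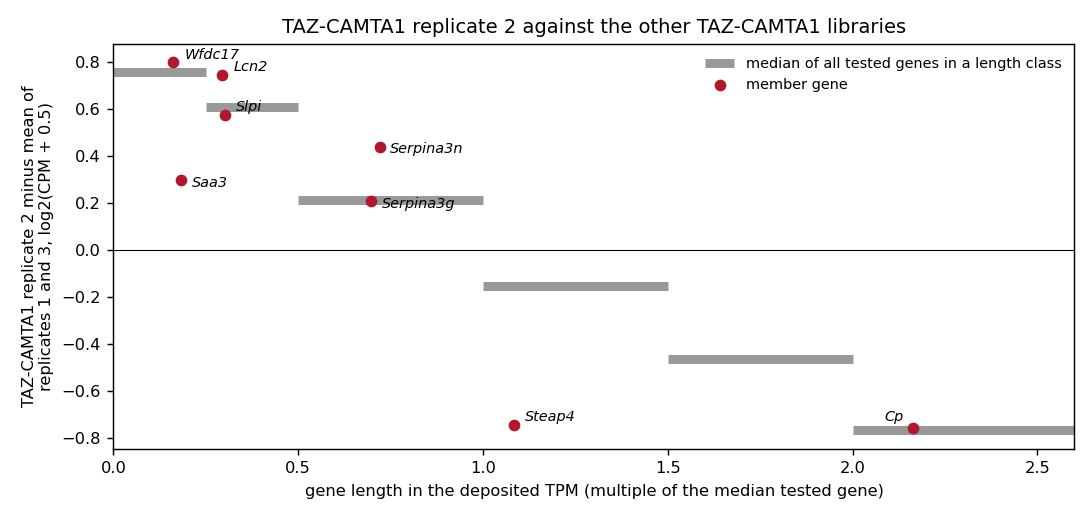
Difference of TAZ-CAMTA1 replicate 2 from the mean of TAZ-CAMTA1 replicates 1 and 3 in log2(CPM + 0.5) (vertical axis) against gene length in the deposited TPM as a multiple of the median tested gene (horizontal axis). Points are the 8 members and grey bars the median of all tested genes in each length class. The class medians run from 0.76 for the shortest to -0.77 for the longest class, with Wfdc17 at 0.80, Cp at -0.75 and Steap4 below its class at -0.74.

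Serpina3g and Serpina3n lie with their relatives in a group of serpin genes on chromosome 12, and near copies can exchange reads. Of the 50-base stretches of Serpina3g transcripts in GENCODE vM21, 15.5% also occurred in another gene, mainly Serpina3h (8.89%), Serpina3i (6.84%) and Serpina3f (6.29%). For Serpina3n the share was 6.90%, with 2.53% shared with Serpina3g. Lcn2, Steap4, Slpi and Wfdc17 shared none, Cp shared 0.618% with Hps3, a gene it overlaps, and Saa3 shared 4.15%, with no other Saa gene among its 6 closest matches. Over all introns, multiply mapped reads made up 30.6% in TAZ-CAMTA1 replicate 2 and 20.8% to 22.2% in every other library. Intron reads below are not scaled to depth. Unique intron reads per library were 6582035 to 9437432 in TAZ-CAMTA1, 9419070 to 9889541 in TAZ4A and 6410070 to 9767987 in control libraries. Reads across Serpina3g introns that mapped to more than 1 place made up 15.3% in TAZ-CAMTA1, 15.03% in TAZ4A and 14.96% in control libraries. Most lay in the last intron (104240398-104241035), where 146 of the multiply mapped and 240.0 of the unique reads fell in TAZ-CAMTA1, 152 and 272 in TAZ4A, and 13 and 16 in control libraries. The next intron towards the start (104239309-104240246) held 475 unique reads in TAZ-CAMTA1, 459 in TAZ4A and 44 in control libraries, against 29, 23 and 0 multiply mapped reads in the same order. For Serpina3n multiply mapped reads made up 78.8% in TAZ-CAMTA1, 66.9% in TAZ4A and 62.5% in control libraries, nearly all in its last intron (104412485-104413411). The intron before it (104411401-104412333) held 9, 19 and 3 unique reads in TAZ-CAMTA1, TAZ4A and control libraries, and the one before that (104409308-104411126) 4, 16 and 0. The few unique reads of those earlier introns had the same order of construct groups as the CPM values. The last intron itself held 8, 9 and 0 unique reads in TAZ-CAMTA1, TAZ4A and control libraries, nearly level between the construct groups. The Serpina3n level is therefore uncertain, as is its difference between the construct groups. How multiply mapped reads were counted is not given in the sources used here.

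The other expressed Serpina3 genes differed among themselves. Serpina3h, annotated as a transcribed pseudogene, was at 7.13, 9.20 and 9.03 CPM in TAZ-CAMTA1, 3.13, 2.69 and 2.55 CPM in TAZ4A and 0.19, 0.06 and 0.16 CPM in control libraries. It rose in TAZ-CAMTA1 over TAZ4A (log2 difference 1.44, SE 0.13, limma adjusted p 7.8e-05), and so did Serpina3i (0.79, SE 0.09, adjusted p 0.00029), at 33.3, 41.0 and 34.7 CPM in TAZ-CAMTA1, 20.2, 20.2 and 21.8 CPM in TAZ4A and 4.41, 4.36 and 4.17 CPM in control libraries. Serpina3f was at 2.01, 2.18 and 2.14 CPM in TAZ-CAMTA1, 2.04, 2.40 and 2.55 CPM in TAZ4A and 0, 0 and 0.09 CPM in control libraries. No control library of Serpina3f or Serpina3h reached 0.5 CPM, so their differences from control are given with no test. Serpina3f was not called in TAZ-CAMTA1 over TAZ4A (-0.11, SE 0.11, limma adjusted p 0.45). Serpina3m, at 3.37 ± 0.69, 2.38 ± 0.33 and 2.40 ± 0.32 CPM in TAZ-CAMTA1, TAZ4A and control libraries, passed the threshold in no comparison (adjusted p 0.066 to 0.97), although leaving out TAZ-CAMTA1 replicate 1 brought it under the threshold over TAZ4A (adjusted p 0.025) and over control (0.032). Serpina3b was listed at a mean of 0.01 CPM in TAZ4A and 0 elsewhere. Serpina3h and Serpina3i share 15.8% of the 50-base stretches of Serpina3h, so their reads are not fully separable either.

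**Figure D4:**
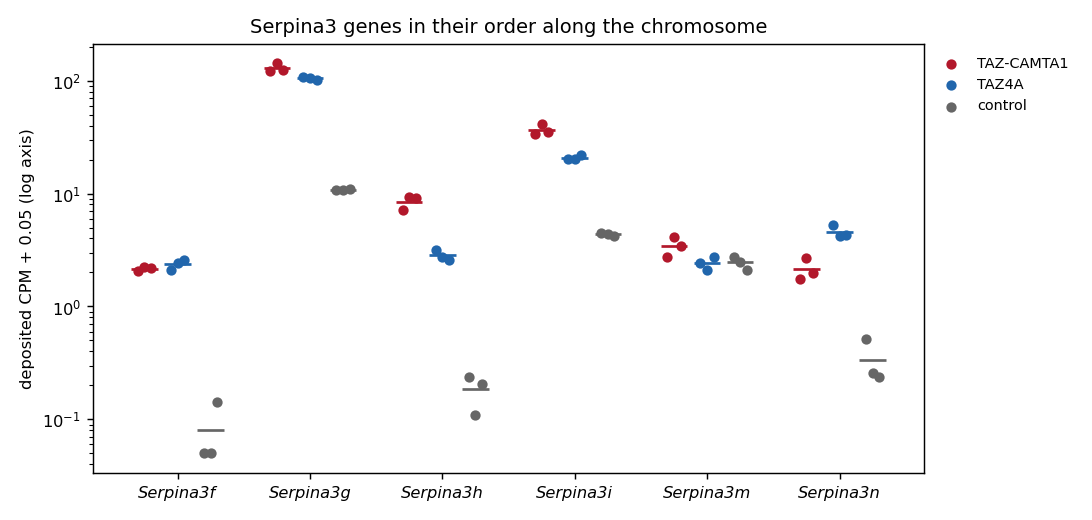
Deposited CPM + 0.05 (vertical log axis) of the 6 Serpina3 genes with expression, in their order along chromosome 12, in TAZ-CAMTA1, TAZ4A and control libraries (points, n = 3) with group means (lines). Serpina3g, Serpina3h and Serpina3i are highest in TAZ-CAMTA1 libraries, Serpina3n is highest in TAZ4A libraries, and Serpina3m overlaps between all groups.

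Serpina3g introns that the deposited junction calls flag as unannotated carried 9.78% to 21.6% of the gene's unique junction reads in TAZ-CAMTA1 libraries. The share was 9.48% to 13.6% in TAZ4A libraries and 9.09% to 28.0% in control libraries. These introns were not compared with GENCODE vM21. The control value rests on few reads, with 2, 14 and 4 such reads in the 3 libraries. On the strand opposite Cp, where Hps3 lies, 88, 56 and 38 unique junction reads were found in TAZ-CAMTA1, 95, 79 and 90 in TAZ4A and 43, 96 and 80 in control libraries, a range that overlapped between all groups.

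The genes whose centred log2(CPM + 0.5) pattern over the 9 libraries lay nearest to each member were named from 10408 genes with at least 5 CPM in a group mean, the distance being a root mean square log2 difference. They included chemokines and complement genes. Cxcl2 was nearest to Slpi (0.43) and to Wfdc17 (0.50), with 25.5 CPM in TAZ-CAMTA1, 74.1 CPM in TAZ4A and 1.79 CPM in control cells. C3, the central complement component, was nearest to Cp (0.44), with 52.8, 205 and 2.03 CPM in the same order, and Cxcl1 to Lcn2 (0.65), with 150.4, 352 and 7.17 CPM. Ccl2 was nearest to Serpina3g (0.25), with 907, 826 and 116 CPM, and the collagen receptor Ddr2 to Steap4 (0.22), with 125, 87.7 and 3.74 CPM. Oas1g, an interferon-induced gene, was nearest to Saa3 (0.18), with 1.89, 13.2 and 1.10 CPM, and Bpifb5 to Serpina3n (0.13), with 4.60, 8.32 and 0.905 CPM. The added 0.5 flattens differences of members near the floor, so a small distance there is not an equal fold change. By reads, TAZ4A over control was 58.4-fold for Saa3, 17.1-fold for Serpina3n and 316-fold for Steap4, larger than the CPM of their nearest genes give. The same held for Slpi (1824-fold), Wfdc17 (661-fold), Cp (253-fold), Lcn2 (81.3-fold) and Serpina3g (9.74-fold). Other genes among the nearest 3 of a member were Cxcl5, C1s1, Irs1, Tgtp2, Il4ra, Pf4, Rassf6 and Hsd11b1. Among the members themselves the nearest pairs were Slpi with Wfdc17 (0.26), Cp with Slpi (0.43), Cp with Wfdc17 (0.45) and Steap4 with Serpina3g (0.57).

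**Figure D5:**
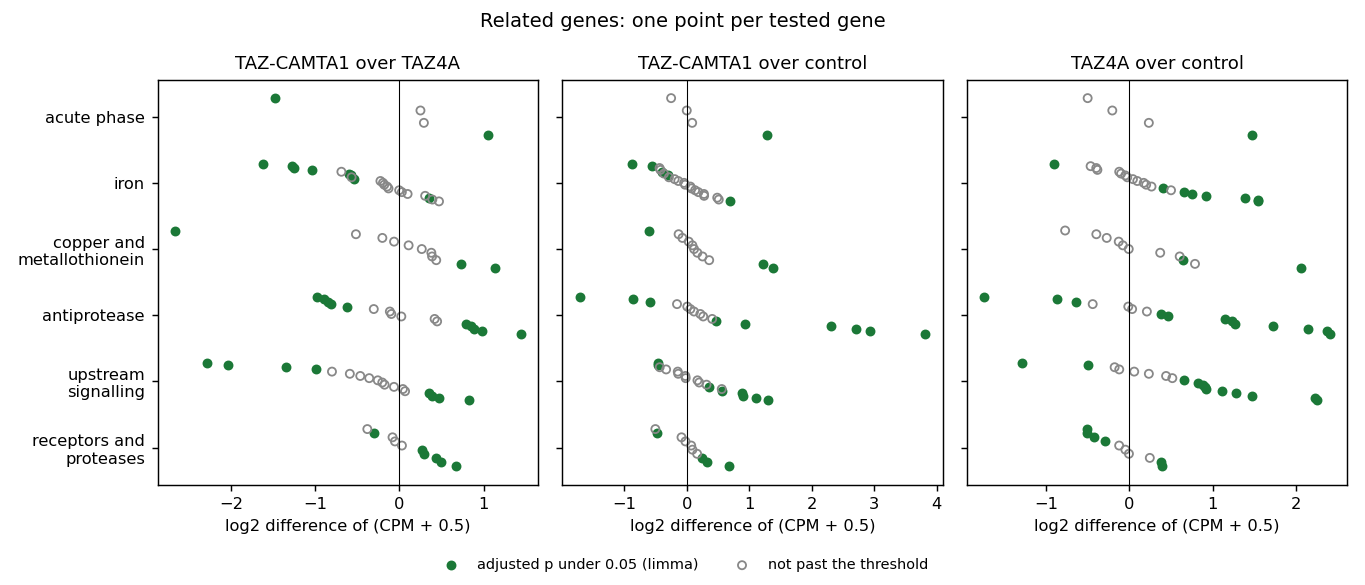
Log2 difference of (CPM + 0.5) for every tested gene of 6 lists of related genes (rows), in TAZ-CAMTA1 over TAZ4A, TAZ-CAMTA1 over control and TAZ4A over control (columns). Filled points passed an adjusted p of 0.05 in limma and open points did not. Sod3, Lif and Osmr lie below -2 in the left column. Hp, Wfdc18, Serpina3f, Serpina3h, Serpinf1 and Il1a had no control library at 0.5 CPM and entered the fit through other groups. Hp and Wfdc18 entered through their TAZ4A libraries alone, so nothing is read from their points in the left column either.

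Counts for the lists that follow stand beside the shares of all tested genes, 19.4% higher and 18.5% lower in TAZ-CAMTA1 over TAZ4A, 13.2% and 11.7% in TAZ4A over control, and 16.8% and 15.3% in TAZ-CAMTA1 over control. With 4 to 21 genes a list, no list was tested against these shares. The shares hold for the fit with all 9 libraries only. Without TAZ-CAMTA1 replicate 2 far more of all tested genes were called in each comparison, as given at the end. Leaving out a control or TAZ4A library instead lowered the number of all tested genes called. In TAZ-CAMTA1 over control it was 2626 without control replicate 3, against 3966 with all 9 libraries. List counts with any library left out are therefore not to be set against these shares, and nothing is read from their size.

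Of 20 other acute-phase genes, 16 were in the table and 4 were tested, the other 12 being below the filter. In TAZ-CAMTA1 over TAZ4A 1 rose and 1 fell, and in each difference from control 1 rose, with median log2 differences of 0.27 in TAZ-CAMTA1 over TAZ4A, 0.01 in TAZ4A over control and 0.04 in TAZ-CAMTA1 over control. Lbp, which carries bacterial lipopolysaccharide to its receptor, averaged 155 ± 20.9 CPM in TAZ-CAMTA1, 74.1 ± 4.20 CPM in TAZ4A and 62.9 ± 1.30 CPM in control cells (SD, n = 3 each). It rose in TAZ-CAMTA1 over TAZ4A (log2 difference 1.05, SE 0.10, limma adjusted p 9.0e-05) and over control (1.28, SE 0.10, adjusted p 5.0e-05), and was at 0.23 in TAZ4A over control (adjusted p 0.14, and 0.00073 without TAZ-CAMTA1 replicate 2). The gene called lower in TAZ-CAMTA1 over TAZ4A, and higher in TAZ4A over control, was Hp, which encodes the haemoglobin binder haptoglobin. It passed the filter through its TAZ4A libraries alone and so had to differ, and nothing is read from its calls. Its levels were low, at 0, 0 and 0.04 CPM in TAZ-CAMTA1, 0.74, 0.97 and 1.10 CPM in TAZ4A and 0.05, 0 and 0 CPM in control libraries, and it was named after its values were seen. Lbp and Lcn2 thus had opposite orders of the construct groups' means. Without TAZ-CAMTA1 replicate 2, 3 of the 4 were called in TAZ4A over control and 2 in TAZ-CAMTA1 over control.

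Of 22 iron handling genes 21 were tested: in TAZ-CAMTA1 over TAZ4A 1 rose and 7 fell, in TAZ4A over control 7 rose and 1 fell, and in TAZ-CAMTA1 over control 1 rose and 4 fell. As shares that is 4.76% and 33.3%, 33.3% and 4.76%, and 4.76% and 19.1% of the tested list. The list's median log2 differences were -0.20, 0.17 and -0.05 in the same order. Steap1 and Steap2, relatives of Steap4, were higher in TAZ4A cells than in the other groups. Steap1 averaged 18.2 ± 3.50 CPM in TAZ-CAMTA1, 44.2 ± 0.30 CPM in TAZ4A and 14.8 ± 0.57 CPM in control cells, and fell in TAZ-CAMTA1 over TAZ4A (-1.27, SE 0.12, limma adjusted p 9.8e-05). Steap2 averaged 127 ± 35.2, 253 ± 6.26 and 86.5 ± 5.24 CPM in the same order and fell likewise (-1.04, SE 0.19, limma adjusted p 0.0032), with a difference over control of 0.51 (adjusted p 0.072, and 7.2e-09 without TAZ-CAMTA1 replicate 2). Both Steap1 (1.55, adjusted p 3.6e-05) and Steap2 (1.54, adjusted p 0.00046) rose in TAZ4A over control in limma. Steap3 was at 3.42 ± 0.24, 3.78 ± 0.15 and 2.75 ± 0.28 CPM and rose in TAZ4A over control (0.40, SE 0.10, limma adjusted p 0.018). The call was lost without control replicate 1 (0.052) or 2 (0.073) and without TAZ4A replicate 2 (0.065) or 3 (0.074). It was also lost with quantile normalization (difference 0.14, limma adjusted p 0.34) and with TPM (0.43, adjusted p 0.053). Unlike Steap4, these 3 relatives were expressed in every control library. Tfrc, the transferrin receptor, averaged 106 ± 29.6 CPM in TAZ-CAMTA1, 317 ± 12.4 CPM in TAZ4A and 188 ± 8.75 CPM in control cells. It fell in TAZ-CAMTA1 over TAZ4A (-1.63, SE 0.19, limma adjusted p 0.00030) and over control (-0.87, SE 0.19, adjusted p 0.0090), and rose in TAZ4A over control (0.75, SE 0.19, adjusted p 0.020). The Tfrc differences without TAZ-CAMTA1 replicate 2 were -1.37 over TAZ4A and -0.61 over control. The call in TAZ4A over control was lost when any single control or TAZ4A library was left out (adjusted p 0.052 to 0.076), and with TPM (0.060). Hmox1, which degrades haem, averaged 389.5 ± 25.9, 304 ± 6.62 and 574 ± 40.6 CPM in TAZ-CAMTA1, TAZ4A and control cells. It fell in TAZ-CAMTA1 over control (-0.56, SE 0.08, limma adjusted p 0.0012) and in TAZ4A over control (-0.91, SE 0.08, adjusted p 6.5e-05), and rose in TAZ-CAMTA1 over TAZ4A (0.35, SE 0.08, adjusted p 0.0096). Slc11a2, an iron importer, averaged 77.7 ± 7.91, 90.6 ± 1.497 and 47.7 ± 1.61 CPM in the same order and rose over control in TAZ-CAMTA1 (0.69, SE 0.09, limma adjusted p 0.00049) and in TAZ4A (0.92, SE 0.09, adjusted p 8.5e-05). Without TAZ-CAMTA1 replicate 2 the counts called were 15 of 21 in TAZ-CAMTA1 over TAZ4A, 13 in TAZ4A over control and 12 in TAZ-CAMTA1 over control, and without control replicate 3 the last was 3.

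Of 12 copper handling and metallothionein genes 11 were tested, with 2 rises and 1 fall in TAZ-CAMTA1 over TAZ4A, 2 rises in TAZ4A over control, and 2 rises and 1 fall in TAZ-CAMTA1 over control. As shares that is 18.2% and 9.09%, 18.2% and 0%, and 18.2% and 9.09% of the tested list. The list's median log2 differences were 0.27, -0.01 and 0.11 in the same order. Sod3, the extracellular copper and zinc superoxide dismutase, was at 0.49, 0.71 and 0.52 CPM in TAZ-CAMTA1, 6.19, 6.67 and 6.05 CPM in TAZ4A and 1.11, 1.11 and 1.16 CPM in control libraries. The TAZ-CAMTA1 libraries lay below the control libraries and the TAZ4A libraries above them. Sod3 fell in TAZ-CAMTA1 over TAZ4A (-2.67, SE 0.10, limma adjusted p 4.7e-07) and over control (-0.60, SE 0.10, adjusted p 0.0025) and rose in TAZ4A over control (2.06, SE 0.10, adjusted p 1.9e-06). Slc31a2, a copper transporter, averaged 36.6 ± 2.53, 21.8 ± 0.50 and 13.7 ± 0.17 CPM in TAZ-CAMTA1, TAZ4A and control cells. It rose in each comparison, by 0.73 in TAZ-CAMTA1 over TAZ4A (limma adjusted p 0.00012), 0.65 in TAZ4A over control (0.00027) and 1.38 in TAZ-CAMTA1 over control (5.9e-06), each with an SE of 0.07. Atox1, the copper chaperone, averaged 182 ± 87.7, 77.4 ± 2.71 and 133 ± 16.8 CPM in TAZ-CAMTA1, TAZ4A and control cells and rose in TAZ-CAMTA1 over TAZ4A (1.13, SE 0.27, limma adjusted p 0.012, and 0.76 without TAZ-CAMTA1 replicate 2, which was at 283 CPM against 130.3 and 133 CPM in replicates 1 and 3). In TAZ4A over control Atox1 was at -0.77 (limma adjusted p 0.073), and it was called without TAZ-CAMTA1 replicate 2 (adjusted p 1.5e-07), with TPM (0.036), with DESeq2 (0.031), with the 6 libraries compared (4.3e-07) and with library weights (5.7e-08). Mt1, a metallothionein, averaged 3.16 ± 1.13, 2.15 ± 0.47 and 1.12 ± 0.73 CPM and rose in TAZ-CAMTA1 over control (1.23, SE 0.32, limma adjusted p 0.021). The call was lost without control replicate 2 (0.075) or 3 (0.077), with quantile normalization (0.065) and with the 6 libraries compared (0.061). Without TAZ-CAMTA1 replicate 2 the counts called were 5, 8 and 7 of 11 in TAZ-CAMTA1 over TAZ4A, TAZ4A over control and TAZ-CAMTA1 over control.

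Of 37 other antiprotease genes 26 were in the table and 16 were tested: 5 rose and 5 fell in TAZ-CAMTA1 over TAZ4A, 9 rose and 3 fell in TAZ4A over control, and 6 rose and 3 fell in TAZ-CAMTA1 over control. As shares that is 31.3% and 31.3%, 56.3% and 18.8%, and 37.5% and 18.8% of the tested list. For 4 of the 16 (Serpina3f, Serpina3h, Serpinf1 and Wfdc18) no control library reached 0.5 CPM, so nothing is read from their part of the counts over control. Wfdc18 passed the filter through its TAZ4A libraries alone and Serpinf1 mainly through its own. Nothing is read from their part of the counts in TAZ-CAMTA1 over TAZ4A either. The list's median log2 differences were -0.04, 0.42 and 0.24 in the same order. Serpinb1a and Serpinb8, both intracellular, were lower than control in both construct groups. Serpinb1a, an elastase inhibitor, averaged 27.0 ± 2.89, 14.4 ± 0.65 and 49.4 ± 0.78 CPM, and Serpinb8 4.24 ± 0.06, 8.01 ± 0.25 and 15.1 ± 0.78 CPM, in TAZ-CAMTA1, TAZ4A and control cells. Both fell over control in TAZ-CAMTA1 (-0.86 and -1.72, limma adjusted p 0.00018 and 2.6e-06) and in TAZ4A (-1.75 and -0.87, adjusted p 2.2e-06 and 6.4e-05). Serpinb9b, another intracellular serpin, averaged 22.001 ± 1.94, 43.6 ± 1.24 and 33.4 ± 1.40 CPM. It fell in TAZ-CAMTA1 over TAZ4A (-0.97, SE 0.08, limma adjusted p 4.8e-05) and over control (-0.59, adjusted p 0.00092) and rose in TAZ4A over control (0.38, adjusted p 0.0099). This last call was lost without TAZ4A replicate 1 (0.0505) and with TPM (0.058).

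Of 22 genes for cytokines, receptors and factors upstream of the response 18 were tested: 4 rose and 4 fell in TAZ-CAMTA1 over TAZ4A, 10 rose and 2 fell in TAZ4A over control, and 6 rose and 2 fell in TAZ-CAMTA1 over control. As shares that is 22.2% and 22.2%, 55.6% and 11.1%, and 33.3% and 11.1% of the tested list, with Il1a below 0.5 CPM in every control library. The list's median log2 differences were -0.23, 0.74 and 0.18 in the same order. The genes with the largest falls in TAZ-CAMTA1 over TAZ4A were Lif and Osmr, both of the interleukin-6 family axis. Lif, a cytokine ligand, was at 0.80, 0.57 and 0.83 CPM in TAZ-CAMTA1, 4.95, 5.91 and 5.59 CPM in TAZ4A and 0.79, 0.87 and 0.60 CPM in control libraries. Osmr, the oncostatin M receptor, was at 19.3, 10.2 and 17.5 CPM in TAZ-CAMTA1, 64.1, 61.3 and 65.9 CPM in TAZ4A and 12.4, 12.4 and 14.8 CPM in control libraries. For both genes the TAZ-CAMTA1 and control ranges overlapped and the TAZ4A libraries were above them. Lif (-2.28, SE 0.13, limma adjusted p 5.3e-06) and Osmr (-2.04, SE 0.21, adjusted p 0.00014) fell in TAZ-CAMTA1 over TAZ4A, and Lif (2.26, adjusted p 5.2e-06) and Osmr (2.24, adjusted p 9.4e-05) rose in TAZ4A over control. Without TAZ-CAMTA1 replicate 2, Osmr was at -1.77 in TAZ-CAMTA1 over TAZ4A and was also called over control (0.47, limma adjusted p 9.5e-05, against 0.20 and 0.50 with it). Lifr, the Lif receptor, averaged 11.8 ± 2.68, 30.3 ± 0.37 and 16.2 ± 1.26 CPM and fell in TAZ-CAMTA1 over TAZ4A (-1.35, SE 0.15, limma adjusted p 0.00026, and -1.16 without TAZ-CAMTA1 replicate 2). Cebpd, a C/EBP factor, averaged 15.5 ± 3.31, 17.4 ± 0.13 and 6.89 ± 0.35 CPM and rose over control in TAZ-CAMTA1 (1.10, SE 0.13, limma adjusted p 0.00048) and in TAZ4A (1.28, SE 0.13, adjusted p 0.00018). Zc3h12a, an RNase that degrades cytokine mRNAs, averaged 16.9 ± 0.71, 12.8 ± 0.85 and 6.61 ± 0.24 CPM. It rose over control in TAZ-CAMTA1 (1.29, SE 0.08, limma adjusted p 1.4e-05) and in TAZ4A (0.90, SE 0.08, adjusted p 7.0e-05). Socs3, the feedback inhibitor of the pathway, averaged 48.1 ± 9.96, 26.5 ± 1.52 and 65.7 ± 1.71 CPM and fell in TAZ4A over control (-1.29, SE 0.13, limma adjusted p 0.00015). It rose in TAZ-CAMTA1 over TAZ4A (0.83, SE 0.13, adjusted p 0.0015), and its fall in TAZ-CAMTA1 over control (-0.46, SE 0.13, limma adjusted p 0.028) was lost without any single control library (adjusted p 0.071 to 0.087) and without TAZ-CAMTA1 replicate 1 or 3 (0.073 each). That fall was also lost with quantile normalization (0.096) and with the 6 libraries compared (0.086). Rela, an NF-kB subunit, averaged 163 ± 27.5, 117 ± 5.35 and 127 ± 6.04 CPM and rose in TAZ-CAMTA1 over TAZ4A (0.47, SE 0.12, limma adjusted p 0.013, and 0.055 without TAZ4A replicate 3). That difference was 0.34 for Rela and 0.67 for Socs3 without TAZ-CAMTA1 replicate 2. Tnfrsf1a, a tumour necrosis factor receptor, averaged 253 ± 18.3, 197 ± 8.05 and 278 ± 6.89 CPM and fell in TAZ4A over control (-0.50, SE 0.08, adjusted p 0.0015). Without TAZ-CAMTA1 replicate 2 the counts called were 14, 17 and 14 of 18 in TAZ-CAMTA1 over TAZ4A, TAZ4A over control and TAZ-CAMTA1 over control, and without control replicates 1, 2 or 3 the last was 3, 4 and 3, and 5 without TAZ4A replicate 3.

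Of 18 receptors, partners and target proteases of the members 14 were in the table and 10 were tested: 5 rose and 1 fell in TAZ-CAMTA1 over TAZ4A, 2 rose and 4 fell in TAZ4A over control, and 3 rose and 1 fell in TAZ-CAMTA1 over control. Of the tested list that is 50% and 10%, 20% and 40%, and 30% and 10%. The list's median log2 differences were 0.15, -0.09 and 0.08 in the same order. Grn, the growth factor precursor that Slpi protects from elastase, averaged 1416 ± 141, 1048 ± 43.7 and 1500.0 ± 89.0 CPM in TAZ-CAMTA1, TAZ4A and control cells and fell in TAZ4A over control (-0.52, SE 0.09, limma adjusted p 0.0031). Ctsb, a cathepsin, averaged 1289 ± 123, 909.6 ± 2.23 and 1226 ± 47.0 CPM and rose in TAZ-CAMTA1 over TAZ4A (0.50, SE 0.08, limma adjusted p 0.0017). Tlr2, a receptor for serum amyloid A, averaged 38.2 ± 1.83, 47.2 ± 1.49 and 35.9 ± 1.85 CPM and fell in TAZ-CAMTA1 over TAZ4A (-0.30, SE 0.07, limma adjusted p 0.012, and 0.056 without TAZ4A replicate 3). Ager, a receptor of the immunoglobulin family that also binds serum amyloid A, averaged 2.62 ± 0.50, 1.44 ± 0.23 and 1.45 ± 0.27 CPM and rose in TAZ-CAMTA1 over TAZ4A (0.68, SE 0.16, limma adjusted p 0.0099). Ly96, the partner of Toll-like receptor 4, averaged 13.2 ± 2.08, 12.8 ± 0.58 and 18.5 ± 1.83 CPM and Plscr1, a membrane partner of Slpi, 20.7 ± 1.44, 21.5 ± 1.41 and 16.5 ± 0.99 CPM. Ly96 fell over control in TAZ-CAMTA1 (-0.48, limma adjusted p 0.018) and in TAZ4A (-0.51, adjusted p 0.016), and Plscr1 rose over control in TAZ-CAMTA1 (0.32, adjusted p 0.025) and in TAZ4A (0.37, adjusted p 0.015). The calls of Ly96 and Plscr1 over control were lost without several single libraries. In TAZ-CAMTA1 over control both were lost with the 6 libraries compared (limma adjusted p 0.068 and 0.077). With TPM the Plscr1 calls were lost in TAZ-CAMTA1 (0.19) and in TAZ4A over control (0.060). The count in TAZ-CAMTA1 over control was 2 without control replicate 1, control replicate 2 or TAZ-CAMTA1 replicate 3 and 0 without control replicate 3, the count in TAZ-CAMTA1 over TAZ4A was 3 without TAZ4A replicate 3, and the count in TAZ4A over control was 3 without TAZ4A replicate 1 or 2.

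Macrophages, neutrophils and hepatocytes make several of these members, so their markers were read in the same libraries. In bulk RNA, fewer cells of a type and less RNA per cell cannot be told apart. Of 12 macrophage markers 9 were in the table, with sums of 462 to 713 CPM in TAZ-CAMTA1, 396 to 404 CPM in TAZ4A and 451 to 524 CPM in control libraries, nearly all of it Cd68. Lyz2 was at 5.62 to 8.87 CPM in TAZ-CAMTA1, 1.20 to 1.92 CPM in TAZ4A and 0 to 0.03 CPM in control libraries, while Ptprc, the marker of all leukocytes, was at 0 to 0.09, 0.03 to 0.06 and 0 to 0.19 CPM and Csf1r at 0.10 to 0.13, 0.03 to 0.15 and 0 CPM. The 6 neutrophil markers in the table summed to 0 to 0.30 CPM in TAZ-CAMTA1, 0.52 to 1.02 CPM in TAZ4A and 0.09 to 0.27 CPM in control libraries, of which S100a8 gave 0.31 to 0.74 CPM in TAZ4A. The 3 hepatocyte markers in the table summed to 0.83 to 1.48, 0.59 to 0.87 and 0.42 to 0.96 CPM. Fibroblast markers summed to 13.7 to 20.4, 19.3 to 21.2 and 6.16 to 7.99 CPM, with Dcn at 1.99 to 2.07 CPM in TAZ4A and 0 to 0.03 CPM in the other groups, and epithelial markers to 34.1 to 65.7, 29.9 to 32.9 and 24.8 to 28.1 CPM, with no common order among them. Krt19 was at 0.83 to 2.15 CPM in TAZ-CAMTA1, 7.98 to 10.03 CPM in TAZ4A and 0.44 to 0.56 CPM in control libraries, whereas Cldn4 was at 12.5 to 16.2, 2.15 to 3.13 and 3.76 to 4.07 CPM and Krt18 at 19.4 to 46.4, 18.6 to 19.7 and 20.1 to 23.4 CPM. The part of Lyz2, S100a8, Dcn, Krt19 and Cldn4 in the members' levels was not tested.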

How the data were processed

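Per the labels' protocols, poly-A RNA was purified, prepared with a stranded kit and sequenced on an Illumina HiSeq instrument. Per the submitters' processing notes, bcl2fastq, FastQC, STAR, featureCounts and edgeR were used on mm10; versions, settings and strand use in counting are not given in the sources used here. The authors deposited gene values on an iGenomes annotation as a normalized signal they call CPM (column sums 976997 to 1028367) and as TPM, and junction files with counts of unique and multiply mapped reads. All values of the CPM signal were whole multiples of 1 read (100% within 0.01), and whole reads were recovered. The design assumed CPM, and the same test was kept for this unit.

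Groups came from the sample titles. The test was limma-trend (limma 3.58.1, R 4.3.3, robust) on log2(CPM + 0.5) with all 9 libraries, genes of at least 0.5 CPM in 3 libraries (12350 of 17565), and Benjamini-Hochberg adjustment over all of them at 0.05; fold changes on this scale understate low genes. It was tested on simulated data with 200 changed genes. The members, the 6 lists of related genes and the marker lists were chosen with earlier results of these data known. Related genes were named by rule: up to 2 called genes a direction, comparison and list reaching 1 CPM in the higher group mean, plus near copies of members. A gene that this rule named is not reported here. Gene positions and promoters are from RefSeq GRCm38.p6, and transcripts and gene strands from GENCODE vM21 on the same build. Introns and their annotated flag are from the deposited junction calls, and the annotation behind that flag was not checked. Relative gene lengths are the ratio of the deposited CPM to TPM, scaled to the median tested gene. The deposited transcript tables and the authors' comparison table were not used. Alternatives were other pseudocounts, filters, scalings, TPM, the GENCODE table, edgeR 4.0.16 and DESeq2 1.42.0 on recovered reads, library weights, 2-group fits, a replicate block and leaving out each library.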

Additional observations from a re-analysis of the deposited data

How the results depend on the processing

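Depth limits the members in control libraries, where 3 reads are 0.0878 to 0.139 CPM, and the log2 differences of low members depend on the pseudocount. For Slpi in TAZ4A over control it was 7.59 with a pseudocount of 0.1, 5.39 with 0.5 and 3.51 with 2. No called difference of a member or of a named related gene changed sign under any alternative. The deposited TPM shifted the median of all genes in TAZ-CAMTA1 over TAZ4A to -0.13. The junction shares gave no value under any alternative, since no pair reached 10 reads in every library. The causes of the changes below were not tested.

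Genes called in TAZ-CAMTA1 over TAZ4A numbered 4684, and 8272 with library weights and 3236 to 7779 leaving out 1 library; in TAZ4A over control 3077, and 7233 with the 6 libraries compared, 7432 with weights and 2101 to 7206 leaving out 1; in TAZ-CAMTA1 over control 3966, and 2445 with 6 libraries, 7255 with weights and 2626 to 7516 leaving out 1. The highest of each range is without TAZ-CAMTA1 replicate 2.

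For the acute-phase list, counts in TAZ4A over control were 3 with no filter, 0 with a filter at 2 CPM, 2 with quantile normalization or TPM, 3 with 6 libraries or weights and 1 to 3 leaving out 1. In TAZ-CAMTA1 over control they were 3 with no filter, 2 with weights and 1 to 2 leaving out 1, and in TAZ-CAMTA1 over TAZ4A 1 with a filter at 2 CPM. Iron genes called in TAZ-CAMTA1 over TAZ4A were 15 with weights and 7 to 15 leaving out 1, in TAZ4A over control 14 with weights or 6 libraries and 6 to 13 leaving out 1, and in TAZ-CAMTA1 over control 12 with weights, 3 with 6 libraries and 3 to 12 leaving out 1. Copper genes called in the same comparisons were 5 with weights and 3 to 5 leaving out 1, 8 with weights or 6 libraries and 2 to 8 leaving out 1, and 6 with weights and 2 to 7 leaving out 1. Upstream genes called were 14 with weights and 7 to 14 leaving out 1 in TAZ-CAMTA1 over TAZ4A, and 14 with weights, 3 with 6 libraries and 3 to 14 leaving out 1 in TAZ-CAMTA1 over control. Receptors and proteases called were 3 to 7 leaving out 1 library in each of TAZ-CAMTA1 over TAZ4A and TAZ4A over control, and in TAZ-CAMTA1 over control 2 with TPM, 1 with 6 libraries and 0 to 6 leaving out 1. Antiprotease counts stayed within 1.5 times under every alternative run.

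Replicate numbers are shared between groups. Deviations of same-numbered libraries correlated at 0.01, 0.32 and 0.26 in TAZ-CAMTA1 and TAZ4A and at 0.06, 0.14 and 0.18 in TAZ4A and control. In TAZ-CAMTA1 and control they correlated at -0.12, 0.52 and 0.39, where libraries of unlike number ran from -0.53 to 0.56. These values do not settle whether the numbers mark pairs, and the reported fit has no pairing. With a replicate block, 4619, 2890 and 3881 genes were called in TAZ-CAMTA1 over TAZ4A, TAZ4A over control and TAZ-CAMTA1 over control.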
